A study of Mus musculus with 2 samples.

Results

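The collagen chain genes encode the alpha chains from which all collagens are built. Every gene whose symbol has the form Col, a number, a, a number was taken, which gave 44 of the 27998 genes listed in the count tables. All 44 were matched by gene identifier to the GENCODE M21 annotation of the mm10 genome build. A transcript was found in the kept cells for 41 of them, and 3 (Col13a1, Col19a1 and Col22a1) had no count. Full values are given for the 11 chains that reached 50 CPM (the UMIs of a gene per 1e6 UMIs of its class) in a cell class of at least 50 cells: Col3a1, Col6a1, Col18a1, Col4a1, Col6a2, Col1a1, Col4a2, Col5a1, Col8a1, Col27a1 and Col9a3. A UMI is the molecular tag that marks 1 captured transcript. The other 33 ranged from 0 to 10911 UMIs over both libraries, and those of them named below were chosen after their values were seen.

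The cells came from the brains of Kunming mice, an outbred stock, carrying the mouse glioma line G422 (called triple negative in the series title). Each of the 2 groups is represented by 1 droplet library. Untreated mice gave the control library, from tumour tissue taken on day 7 after the tumour cells were implanted. Mice of the LTS group had outlived a first tumour by more than 100 days after a combined therapy, then received tumour cells in the opposite side of the brain and outlived them by more than 100 days as well. Tissue is again said to have been taken on day 7, and the labels do not settle which inoculation that day counts from. Neither the agents of the therapy nor the number of mice behind a library is stated in the labels. In both groups the tissue was digested with collagenase IV and DNase I, and the cells were taken between the 70% and 37% layers of a Percoll gradient, so cell shares also carry that selection. With 1 library per group no difference between the groups can be tested, and all intervals below are 95% counting intervals that leave out variation between mice, preparations and cells.

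Collagens are secreted proteins in which 3 alpha chains wind into a triple helix. Fibril-forming chains (types I, III and V among them) give tissues tensile strength, type IV forms the sheet of basement membranes, type VI forms beaded filaments around cells, and types XII and XVI lie on the surface of fibrils. The normal brain holds little fibrillar collagen outside its vessels and meninges, whereas the endothelium of its vessels rests on a type IV basement membrane. Some collagens need chains from different genes. Type I is usually made of Col1a1 with Col1a2, and the classical type IV network of Col4a1 with Col4a2, while type III needs Col3a1 alone.

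Upstream sequences are shown for 3 chains with contrasting patterns: Col3a1, the chain with most counts, Col1a2, nearly without counts in the tumour cells although its partner Col1a1 was present, and Col27a1, which was present in microglia. The sequences are RefSeq's on GRCm38.p6, the plus strand in 5′ to 3′ direction, and cover the 250 bases before the RefSeq start site without any part that GENCODE counts as exon. The stretches are chr1:45311288-45311537 for Col3a1, chr6:4505370-4505492 for Col1a2 (123 bases) and chr4:63215162-63215411 for Col27a1. Capitals mark matches, on either strand, to the GC box core GGGCGG, the promoter box known as CCAAT, and the TATA box written TATAAA.
Col3a1: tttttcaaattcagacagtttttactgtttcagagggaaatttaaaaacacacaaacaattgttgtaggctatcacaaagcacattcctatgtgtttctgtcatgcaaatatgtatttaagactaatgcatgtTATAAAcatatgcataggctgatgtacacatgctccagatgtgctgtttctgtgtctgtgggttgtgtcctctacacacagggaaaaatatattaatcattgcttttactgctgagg
Col1a2: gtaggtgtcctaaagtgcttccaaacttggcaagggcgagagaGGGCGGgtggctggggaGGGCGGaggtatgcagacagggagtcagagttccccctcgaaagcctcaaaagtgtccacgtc
Col27a1: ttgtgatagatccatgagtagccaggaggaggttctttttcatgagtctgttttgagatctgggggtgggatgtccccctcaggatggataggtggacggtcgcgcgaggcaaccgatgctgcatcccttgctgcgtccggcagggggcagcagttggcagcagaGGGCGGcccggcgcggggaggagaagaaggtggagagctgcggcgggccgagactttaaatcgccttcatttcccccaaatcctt
The Col3a1 stretch held 1 TATAAA and no GGGCGG, the Col1a2 stretch 2 GGGCGG, and the Col27a1 stretch 1 GGGCGG. No stretch held CCAAT. The RefSeq start of Col1a2 is at 4505618, so the bases between its stretch and that start were not searched for any of the motifs. Among 32851 windows of 250 bases before RefSeq starts, 32.7% held GGGCGG, 33.8% CCAAT and 12.4% TATAAA. In the 123-base part of the window used for Col1a2, 13.3% of them held GGGCGG. The matches describe letters and show no binding. GENCODE starts the Col1a2 and Col27a1 genes further upstream (at 4504814 and 63214004), so these stretches lie inside the annotated genes, outside their exons.

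The libraries held 165796852 (control) and 149413534 (LTS) UMIs. Of 9127 and 5440 barcodes with at least 1000 UMIs, 8310 control cells (median 14889.5 UMIs) and 4835 LTS cells (median 18779) were kept, tumour-like cells having medians of 20130 and 40636.5, and 13 cell barcodes occurred in both libraries. Clusters were made with the collagen genes left out, so no collagen level defined a class. The tumour-cell-like pool, 5260 control and 2576 LTS cells in 9 clusters, was set apart by a marker list taken from earlier results of these data together with little of the leukocyte gene Ptprc and of Y-linked transcripts, which the host cells carried. The glial genes Gfap, Olig2 and Sox10 were close to absent from it. Gfap was at 0.587 and 0.553 CPM, Olig2 had 1 and 0 UMIs and Sox10 4 and 2. Other glial genes are not given here. Host classes are named by their markers and read "X-like". Tumour markers were counted in them as well: 10 markers stood at a median of 44.6% (control) and 29.2% (LTS) of their tumour level in endothelial-like cells and 24.1% and 10.9% in microglia-like cells. How much of this was RNA from tumour cells and how much the cells' own expression was not tested.

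Among classes of at least 50 cells, collagen transcripts were most frequent in the endothelial-like cells, at 0.306% of all UMIs in the control library (0.299 to 0.313) and 0.396% in the LTS library (0.386 to 0.405), and came next in the tumour cells. In the tumour-cell-like pool they made up 0.2009% of UMIs in the control and 0.2002% in the LTS library. Their shares in microglia-like cells were 0.0330% and 0.0240%, and in monocyte- and macrophage-like cells 0.0359% and 0.0209%. Because each transcript is counted once at its 3′ end, levels are not scaled by gene length. Chains are therefore compared between cells and libraries, and an order among different chains also carries how well each 3′ end is captured. Fibril-forming chains, 11 genes, gave 219825 of the collagen UMIs of all kept cells, beaded-filament chains 116262, basement membrane chains 69355 and the multiplexins 37632.

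**Figure D1:**
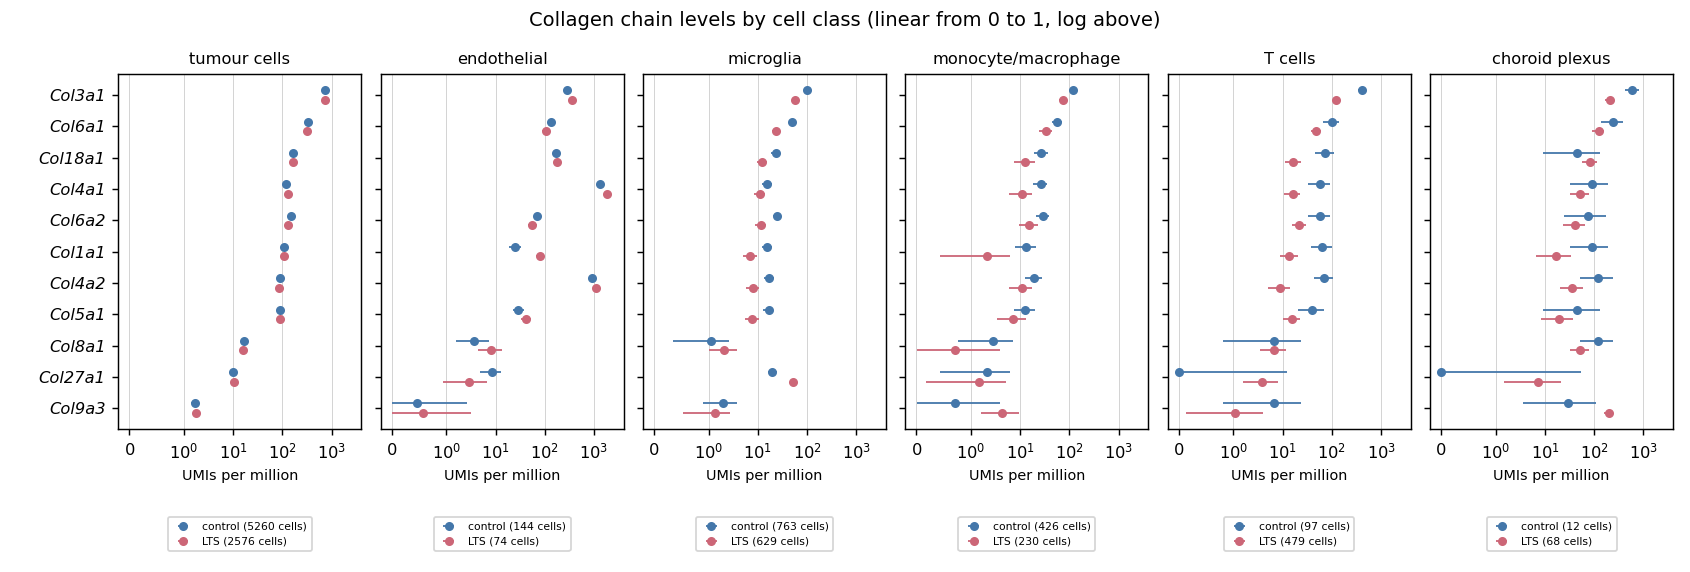
Level of the 11 chains in 6 cell classes, in CPM of the class (linear from 0 to 1, logarithmic above), control in blue and LTS in red, with 95% counting intervals and the cell number of each class under its panel. Tumour-cell levels of the libraries lie on each other, Col4a1 and Col4a2 reach 920 CPM or more in the endothelial panel, and Col27a1 is higher in LTS microglia and Col9a3 highest in choroid plexus cells.

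In the tumour-cell-like pool the fibril-forming chains were led by Col3a1, the single chain of type III collagen. It stood at 724 CPM (80165 UMIs) in the control and 736 CPM (78515 UMIs) in the LTS library. Col1a1, the main type I chain, was at 108 and 110 CPM. Col5a1, whose product sits inside type I and III fibrils and sets their width, was at 90.8 and 88.6 CPM. These 3 chains therefore had nearly the same level in both libraries, with ratios of LTS over control of 1.02, 1.02 and 0.976.

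Among the beaded-filament chains of type VI, Col6a1 was at 327 CPM in the control and 323 CPM in the LTS library. Col6a2 was at 149 and 131 CPM, a ratio of 0.880 (0.860 to 0.900), and Col6a3 at 43.9 and 40.3 CPM. The basement membrane chains Col4a1 and Col4a2 were at 118 and 89.4 CPM in the control and at 132 and 85.1 CPM in the LTS library. Their ratios lay on opposite sides of 1, at 1.12 (1.09 to 1.15) for Col4a1 and 0.952 (0.925 to 0.979) for Col4a2. Col18a1, whose C-terminal fragment is endostatin, was at 163 and 161 CPM. Col8a1, a short-chain network collagen of vessel walls and corneal membranes, was at 16.6 and 15.7 CPM and Col27a1, a fibril-forming chain of cartilage, had 1108 and 1115 UMIs.

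Of the 44 chains, 12 reached 20 CPM in either library, and none of these differed by 2-fold or more, beside 0.265% of 6421 genes at that level (0.0156% higher and 0.249% lower in LTS). The log2 ratios ran from -0.20 (Col16a1, 46.6 and 40.6 CPM) to 0.16 (Col4a1), with a median of -0.02 that equalled that of all 6421 genes. For 3 chains the counting interval lay above 1 and for 4 below 1, while 24.2% of the genes lay above and 35.9% below. Differences of this size cannot be told from differences between preparations, since each group has 1 library.

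**Figure D2:**
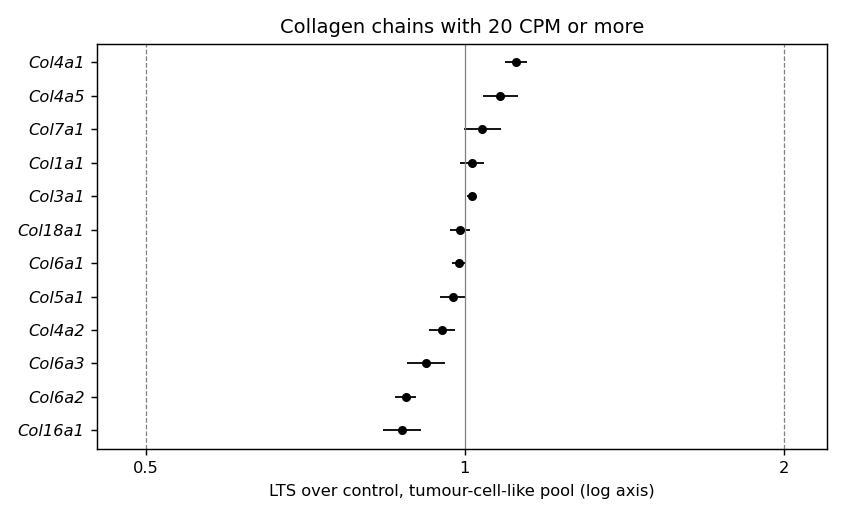
Ratio of the LTS over the control level in the tumour-cell-like pool for the 12 chains with at least 20 CPM, on a logarithmic axis, with exact 95% counting intervals; dashed lines mark 2-fold. All points lie between 0.873 (Col16a1) and 1.12 (Col4a1), far inside the dashed lines.

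Some partner chains had very unequal counts in the tumour cells, and such ratios also carry how well each 3′ end is captured. Col1a2, the second chain of type I collagen, gave 68 UMIs in 5260 control cells and 61 in 2576 LTS cells (0.614 and 0.572 CPM), against 11994 and 11756 UMIs of Col1a1. The ratio of Col1a1 to Col1a2 counts was 176 (139 to 227) in the control and 193 (150 to 252) in the LTS library. No tumour-like cell held more than 4 UMIs of Col1a2. The gene was counted elsewhere in the same libraries: there were 135 Col1a2 UMIs beside 99 Col1a1 UMIs in 15 LTS cells of a small mixed cluster, 88 of them in 1 cell. That cluster (number 21, 12 control and 15 LTS cells) carried markers of mural cells, fibroblasts and glia together and is left without a cell type name.

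RNA outside the cells held relatively more Col1a2. Barcodes with 1 to 100 UMIs, which sample that RNA, had Col1a2 at 16.3 CPM in the control and 17.3 CPM in the LTS library, and Col1a1 at 121 and 127 CPM, a ratio of 7.43 and 7.36. Of Acta2, Rgs5, Vtn, Kcnj8 and Pdgfrb, the mural markers followed there, all but Pdgfrb were higher than in the tumour cells. Acta2 was at 15.8 and 15.1 CPM in those barcodes and 0.913 and 0.937 CPM in the tumour cells. Rgs5 was at 1.44 and 1.77 CPM against 0.343 and 0.515 CPM. Vtn was at 0.720 and 2.66 CPM against 0.217 and 0.309 CPM, and Kcnj8 at 0.480 and 0.665 CPM against 0.0271 and 0.0469 CPM. Counts in the barcodes were few for Rgs5 (6 and 8 UMIs), Vtn (3 and 12) and Kcnj8 (2 and 3). Pdgfrb was at 27.4 and 25.5 CPM against 39.7 and 38.7 CPM. Higher levels in these barcodes were not limited to mural markers. The leukocyte gene Ptprc was at 51.8 and 68.7 CPM against 2.25 and 1.91 CPM. The glial gene Gfap was at 2.16 and 2.88 CPM against 0.587 and 0.553 CPM. The fibroblast markers Dcn and Lum were lower there than in the tumour cells. Both libraries thus held more Col1a2 per Col1a1 in these barcodes than in the tumour-like cells, and the source of these transcripts was not tested. Endothelial-like cells did not share this, with 0 and 1 Col1a2 UMIs beside 54 and 139 of Col1a1.

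**Figure D3:**
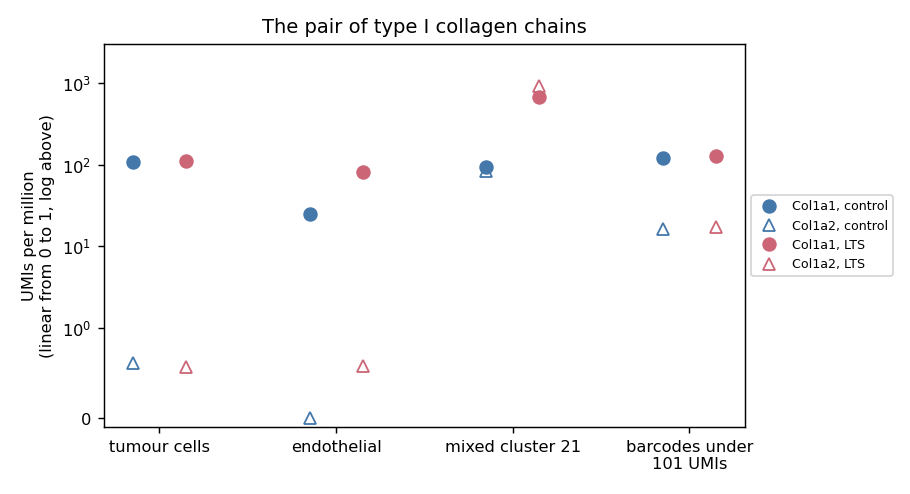
Level of Col1a1 (filled circles) and Col1a2 (open triangles) in tumour-like cells, endothelial-like cells, the small mixed cluster 21 and barcodes with 1 to 100 UMIs, in CPM (linear from 0 to 1, logarithmic above), control in blue and LTS in red. The chains lie more than 100-fold apart in tumour cells, about 7-fold apart in the barcodes with few UMIs and close together in cluster 21.

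Some other neighbouring or partner genes were also unequal. Col4a5 and Col4a6 lie 1308 bases apart in opposite orientation on chromosome X and form a chain pair in smooth muscle basement membranes. In the tumour pool Col4a5 had 5067 and 5281 UMIs, and Col4a6 had 3 and 4. Col3a1 and Col5a2 lie on opposite strands of chromosome 1 with 24614 bases between them. There Col5a2, the usual partner of Col5a1 in type V collagen, was at 3.09 and 2.75 CPM beside the 724 and 736 CPM of Col3a1. Col4a1 (chromosome 8, 11198423 to 11312826, minus strand) and Col4a2 (11312805 to 11449287, plus strand) start head to head with 22 bases in common. This pair was more even, with 1.32 (1.29 to 1.36) Col4a1 UMIs per Col4a2 UMI in control tumour cells and 1.55 (1.51 to 1.60) in LTS tumour cells. Endothelial-like cells gave 1.43 and 1.68 for the same pair.

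The machinery that builds collagen was followed with a list of 46 genes for hydroxylation, folding, export, propeptide removal, cross-linking, receptors and fibril partners, chosen with earlier results of these data known. In the tumour pool 25 of them reached 20 CPM and 0 of 25 differed by 2-fold, with a median log2 ratio of 0.02. The largest ratios belonged to P4hb (564 and 627 CPM, ratio 1.11), the shared subunit of prolyl 4-hydroxylase, Serpinh1 (409 and 451 CPM, 1.10), the collagen chaperone, and P4ha1 (70.6 and 76.3 CPM, 1.08), a catalytic subunit of the same hydroxylase. The smallest belonged to Pcolce (85.4 and 73.7 CPM, 0.864), which enhances propeptide removal, P3h3 (66.2 and 60.8 CPM, 0.918) and Crtap (119 and 111 CPM, 0.933), which take part in the modification of lysines and prolines. Plod2, a lysyl hydroxylase, was at 162 and 170 CPM, and Ddr2, a receptor for fibrillar collagen, at 87.2 and 90.1 CPM.

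The cross-linking enzymes formed an uneven set. Lox, the founding lysyl oxidase, had 1 UMI in each library's tumour pool, whereas Loxl2 was at 17.6 and 16.0 CPM and Loxl3 at 7.20 and 6.04 CPM. Among the procollagen N-proteinases, Adamts2 had 2 and 0 UMIs and Adamts14 was at 19.3 and 18.6 CPM. Both libraries thus showed the same members present and nearly absent. Loxl2, Loxl3, Adamts2 and Adamts14 were singled out after their values were seen.

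Collagen levels differed between the clusters of tumour cells far more than between the libraries. Cluster 3, led by the matrix genes Aspn, Postn and Mgp, had the highest level of all 15 chains that reached 20 CPM in a cluster, in both libraries. For Col12a1 and Col24a1 the 20 CPM minimum fixed this, since they reached it in cluster 3 alone, while the other 13 reached it in further clusters too. Collagen made up 0.468% of its UMIs in 643 control cells and 0.449% in 355 LTS cells. Cluster 7, led by Il11, Nefm and Areg, had the lowest share, 0.124% and 0.113%. In between lay cluster 8, cycling cells with Dmp1 and Mgp (0.289% and 0.284%), cluster 4 with Scx, a tendon transcription factor (0.270% and 0.253%), and the interferon-response cluster 6 (0.203% in each). The mitotic cluster 5 was near the bottom, at 0.130% and 0.121%.

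The spread over clusters was wide for Col1a1. It was at 495 CPM in cluster 3 and 30.2 CPM in cluster 5 of the control library, and at 474 and 26.3 CPM in the LTS library, which is 16.4-fold and 18.0-fold. Col12a1, a fibril-associated chain, spanned 28.9-fold and 26.9-fold, with 27.5 and 28.8 CPM in cluster 3. Col8a1 spanned 23.5-fold and 24.6-fold, from 86.0 and 71.8 CPM in cluster 3 down to 3.65 and 2.91 CPM in cluster 5. Col24a1, a fibril-forming chain of bone, spanned 21.9-fold and 44.5-fold, the latter against only 0.523 CPM in cluster 5.

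Col3a1 varied less, from 1860 CPM in cluster 3 to 367 CPM in cluster 7 of the control library and from 1850 to 328 CPM in the LTS library. The type IV chains were unlike each other. Col4a1 stood at 231 CPM in cluster 3 of both libraries and at 91.4 and 93.9 CPM in cluster 12, 2.52-fold and 2.46-fold, whereas Col4a5 spanned 5.41-fold and 5.20-fold, close to the 5.06-fold and 5.64-fold of Col3a1. Col18a1 was the most even chain, with 1.79-fold and 1.82-fold between clusters 3 and 5. A span of 2-fold or more was found for 13 of 15 chains in the control (86.7%, against 23.4% of 7211 genes) and 14 of 15 in the LTS library (93.3%, against 28.4% of 7223 genes), counts that include Col12a1 and Col24a1. With fewer and larger clusters (resolution 0.5) 8 chains passed in each library.

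Fibroblast and mural markers broadly rose with the collagen level of the clusters. Depth was lowest in cluster 3 and highest in cluster 7 but did not follow collagen in between. Collagen-rich cluster 8 had medians of 21195 and 44912 UMIs, near the 21735 and 47093 of cluster 5. The part of markers and depth in the collagen level was not tested. Cluster 3 cells had a median of 12478 UMIs in the control and 27591 in the LTS library, and cluster 7 cells 27326 and 56864. The summed level of 10 fibroblast markers was 1004 and 999 CPM in cluster 3 and 325 and 285 CPM in cluster 7, with 2 to 3 of the 10 at 0 in each. That of 10 mural markers was 153 and 139 CPM in cluster 3, nearly all of it Pdgfrb at 147 and 134 CPM. Y-linked transcripts, which host cells carried at 80.7 and 94.1 CPM in endothelial-like cells and 119 and 124 CPM in the larger microglia cluster, were at 0.944 and 0.796 CPM in cluster 3. Single cells of cluster 3 varied as well: the middle 90% of control cells held 0.246% to 0.842% collagen, and those of cluster 7 held 0.0426% to 0.258%.

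**Figure D4:**
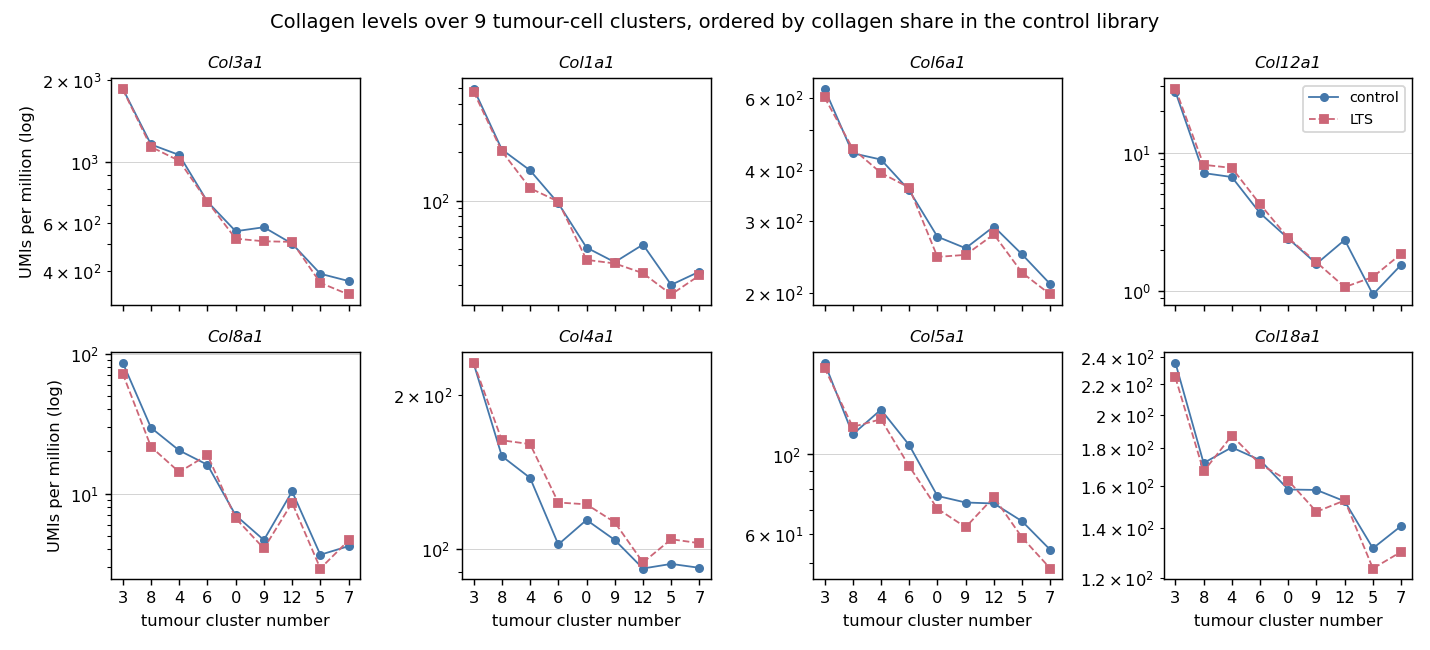
Level of 8 chains in the 9 clusters of tumour-like cells, in CPM on logarithmic axes, with clusters ordered by collagen share in the control library; circles are the control and squares the LTS library. Cluster 3 is highest in each panel, and the lines of the libraries follow each other, with the steepest fall for Col12a1, Col8a1 and Col1a1 and the flattest for Col18a1.

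In host cells a collagen count can come from RNA of the many tumour cells. The level this would give (carry-over) was taken as a chain's tumour level times the median share of 10 tumour markers in the class. The markers were not uniform, spanning 33.2% to 114% of their tumour level in control and 10.1% to 127% in LTS endothelial-like cells, so a ratio near 2 is weak. The highest of them there was Fscn1 in both libraries. In microglia-like cells the markers spanned 15.1% to 57.95% in the control and 5.04% to 53.5% in the LTS library. Monocyte- and macrophage-like cells had spans of 15.2% to 43.1% and 3.09% to 31.4%. T cell-like cells had spans of 14.5% to 96.5% and 9.80% to 53.0%. A chain was counted above carry-over where it was 2-fold higher in both libraries with at least 10 UMIs in each.

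The endothelial-like cells, 144 in the control and 74 in the LTS library, were marked by type IV collagen. Col4a1 was at 1312 CPM (2829 UMIs) in the control and 1868 CPM (3216 UMIs) in the LTS library, which is 24.9 and 48.4 times carry-over. Col4a2 was at 920 and 1115 CPM, 23.1 and 44.9 times carry-over. After each cell was thinned to 1000 UMIs, 67.4% of control and 75.7% of LTS endothelial-like cells held a Col4a1 UMI (93.8% and 94.6% unthinned), against 2.06% and 1.67% of T cell-like cells. Median depth before thinning was 11661.5 and 16200 UMIs in endothelial-like and 2101 and 3235 in T cell-like cells. Col18a1, a component of vessel basement membranes, was at 170 and 174 CPM and 2.34 and 3.69 times carry-over.

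Above carry-over were 4 of 13 chains with enough UMIs (30.8%, against 54.7% of 9462 genes), the fourth being Col5a3 with 11 and 15 UMIs. Of the LTS Col5a3 UMIs, 14 lay in 1 cell, as did 19 of 20 Col15a1 UMIs. In the control 6 of the 11 Col5a3 UMIs lay in 1 cell. Without that cell the control Col5a3 level was 2.34 CPM, and carry-over would give 2.19 CPM. Without endothelial-like cells holding 3 or more UMIs of mural markers (5 control and 3 LTS cells), the count of chains above carry-over was 3. Col3a1 and Col6a1, the highest chains in the tumour cells, were nearer to the carry-over level here, unlike Col18a1 and Col4a1. Col1a1 was at 0.518 times carry-over in the control and 2.51 times in the LTS library. Col3a1 was at 277 CPM in the control and 362 CPM in the LTS library, 0.858 and 1.68 times carry-over, and Col6a1 was at 0.929 and 1.11 times.

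Between the libraries Col4a1 was 1.42-fold (1.35 to 1.50) and Col4a2 1.21-fold (1.14 to 1.29) higher in LTS endothelial-like cells. Without the cells holding mural UMIs the ratios were 1.36 and 1.19, and with free RNA taken off they were 1.11 and 0.945, so the direction for Col4a2 turned. Of 10 chains with 20 CPM, 2 were at least 2-fold higher in LTS (0.527% of 6832 genes were) and 0 lower (0.951%). These were Col1a1, at 25.1 and 80.7 CPM from 54 and 139 UMIs (3.22-fold, 2.34 to 4.50), and Col4a5, at 14.8 and 30.2 CPM from 32 and 52 UMIs. Col4a5 entered the 10 only through the LTS library, so its call is in part set by the minimum. The Col1a1 UMIs of the LTS library lay in 11 of 74 cells, with 39 of them in 1 cell, without which the level was 60.2 CPM. When each cell weighed the same the Col1a1 ratio was 1.64 and no chain passed, and without the cells of highest doublet score it was 2.07 and 1 chain passed. Mural markers summed to 36.2 CPM in the control, with Notch3, Acta2 and Myh11 at 0, and to 129 CPM in the LTS library, with Myh11 at 0. Their part in the Col1a1 and Col4a5 ratios was not tested beyond leaving out those 8 cells, after which Col1a1 was 3.64-fold and Col4a5 2.04-fold higher.

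Microglia-like cells numbered 763 and 629, and Col27a1 had the highest level of their chains above carry-over. Col27a1 was at 19.8 CPM (90 UMIs in 82 cells) in the control and 51.3 CPM (272 UMIs in 195 cells) in the LTS library, 8.17 and 45.0 times carry-over. Thinned to 1000 UMIs, 1.97% and 8.90% of the cells held it, and 0% and 0.626% of T cell-like cells did (10.7%, 31.0%, 0% and 1.25% unthinned). With none among 97 control T cell-like cells, a share of up to 3.73% is allowed by the exact interval. Median depths were 5577 and 6397 UMIs in microglia-like cells.

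Col27a1 differed 2.59-fold (2.04 to 3.33) between the libraries, and its level also differed between the 2 clusters of the class. Cluster 2, with 756 control and 406 LTS cells, gave 19.4 and 22.6 CPM, a ratio of 1.16 (0.869 to 1.57). Cluster 15, led by P2ry12, Btg2 and Selplg, held 223 of its cells in the LTS library and gave 239 CPM there (205 to 279). Its 7 control cells had 2 Col27a1 UMIs. Within the larger cluster the interval of the ratio included 1, and the 7 control cells of cluster 15 are too few for a ratio. The part of the makeup of the class in the difference was not tested. With equal cell weights the class ratio was 4.37.

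Col15a1, a multiplexin of basement membranes, and Col25a1, a transmembrane chain, were also above carry-over in microglia-like cells, though low. Col15a1 was at 5.71 and 10.4 CPM and Col25a1 at 3.07 and 4.52 CPM, while carry-over would give at most 0.0218 CPM. Together these were 3 of 15 chains (20%, against 83% of 10693 genes). Col6a3 passed in the LTS library alone, at 12.2 CPM from 65 UMIs in 58 cells, 2.79 times carry-over. That ratio lay within the spread of the tumour markers in these cells, so it is weak. In the control Col6a3 was at 7.68 CPM and 0.726 times carry-over. Cluster 15 held 32 of the 65 LTS UMIs of Col6a3, at 45.6 CPM. The abundant tumour chains stayed below the carry-over level: Col3a1 was at 98.6 and 57.1 CPM, 0.564 and 0.712 times, and Col4a1 at 15.4 and 10.9 CPM, 0.539 and 0.759 times.

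Of 5 chains with 20 CPM in microglia-like cells, Col27a1 was 2-fold higher in LTS (0.297% of 6400 genes) and 2 were 2-fold lower (0.797%). The lower ones were Col6a1, at 50.1 and 22.8 CPM, and Col6a2, at 24.8 and 11.5 CPM. Col27a1 reached 20 CPM in the LTS library alone and Col6a2 in the control alone. Tumour markers in these cells stood at 24.1% and 10.9% of their tumour level, and relative to carry-over Col6a1 was at 0.634 in the control and 0.648 in the LTS library.

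In monocyte- and macrophage-like cells, 426 and 230 in number, Col15a1 was the only chain above carry-over, 1 of 8 (12.5%, against 66.4% of 8353 genes). It was at 12.6 CPM in the control and 10.6 CPM in the LTS library, from 18 and 15 UMIs. Col3a1 was at 117 and 73.8 CPM, 0.509 and 1.21 times carry-over. Col18a1 (26.6 and 12.8 CPM) and Col4a1 (25.9 and 10.6 CPM) were 2-fold lower in LTS, 2 of 5 chains with 20 CPM (3.81% of 6295 genes were lower and 0.62% higher), and both reached 20 CPM in the control alone. Tumour markers stood at 31.9% and 8.29% of their tumour level in the same cells, and their part in these differences was not tested.

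T cell-like cells, 97 and 479 in number, showed no chain above carry-over (0 of 8, against 52.4% of 4769 genes). Their collagen share was 0.0989% in the control and 0.0311% in the LTS library, and carry-over would give 0.0961% and 0.0319%. All 9 chains with 20 CPM were at least 2-fold lower in LTS (12.3% of 6817 genes were lower and 6.45% higher). For 6 of the 9 the minimum was met in the control library alone, which favours that direction, so the count is a description. Col3a1, above the minimum in both, was at 405 CPM and 119 CPM, 1.17 and 1.01 times carry-over. In the control 54 of its 122 UMIs lay in 1 cell and in the LTS library 52 of 216, and without these cells the levels were 239 and 91.3 CPM. The tumour markers stood at 47.8% and 15.9% of their tumour level.

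**Figure D5:**
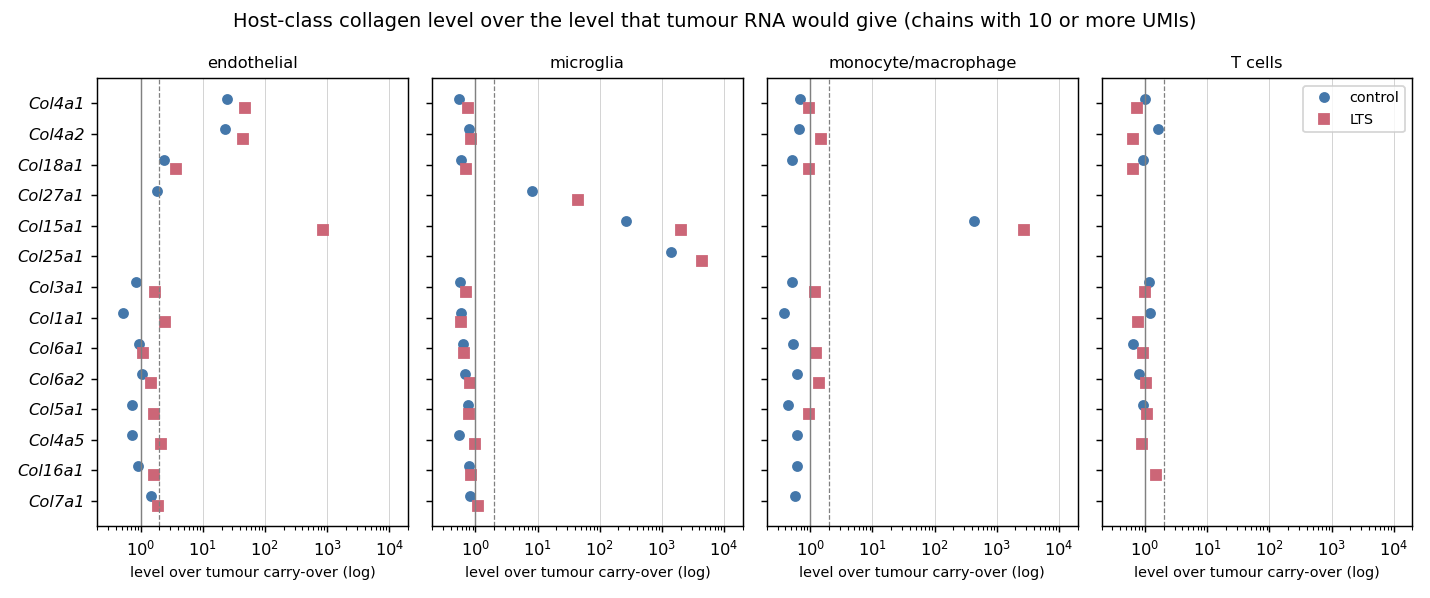
Level of 14 chains in 4 host classes divided by the level that tumour RNA would give, on logarithmic axes, for chains with at least 10 UMIs in that class and library; the solid line marks 1 and the dashed line 2. Col4a1 and Col4a2 stand apart in endothelial-like cells (the LTS Col15a1 point there rests on 19 of 20 UMIs in 1 cell), Col27a1, Col15a1 and Col25a1 in microglia-like cells and Col15a1 in monocyte- and macrophage-like cells, while Col3a1 in T cell-like cells lies at 1.17 and 1.01.

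Choroid plexus epithelium-like cells, which secrete cerebrospinal fluid, numbered 12 in the control and 68 in the LTS library, too few for a ratio. In the LTS library Col9a3, a fibril-associated chain known from cartilage, was at 196 CPM (156 to 243), from 83 UMIs in 35 cells, whereas tumour cells had 1.64 and 1.74 CPM. Col8a1 was at 52.0 CPM (22 UMIs in 16 cells) and Col8a2, its usual partner, at 30.7 CPM (13 UMIs). Carry-over would give 0.587 CPM of Col9a3, 5.28 CPM of Col8a1 and 0.0631 CPM of Col8a2. The 12 control cells had 8 UMIs of Col8a1.

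Chains without a count could not be told from very low ones. In the tumour pool 3 counts correspond to 0.0271 CPM in the control and 0.0281 CPM in the LTS library. For a count of 0 the counting interval ends at 0.0333 and 0.0346 CPM. This applies to Col13a1, Col19a1 and Col22a1, and to Col4a3 and Col6a4, which were counted in other cells. Of the chains of type II and XI collagen, the fibrils of cartilage, Col2a1 and Col11a1 were near that level, with 6 and 11 UMIs in all kept cells. Col11a2, another type XI chain, was above it, at 0.660 and 0.647 CPM in the tumour pool (73 and 69 UMIs).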

How the data were processed

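Droplet UMI counts per gene and barcode were used as deposited, without normalization, from 1 control and 1 LTS library. Per the file headers, Cell Ranger 4 produced them. The submitters' processing notes name mm10 as the build, and no annotation release is named. The chains and gene lists were chosen with earlier results of these data known.

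Barcodes with at least 1000 UMIs, 300 genes and at most 15% mitochondrial UMIs were kept. Scrublet marked 177 control (2.13%) and 85 LTS cells (1.76%), which stayed in; an alternative left out the top 5% of doublet scores. Clustering used 2000 variable genes without collagen and immune receptor segments, 30 components, 15 neighbours and Leiden resolution 1 (scanpy 1.11.5, leidenalg 0.10.2). A class needed 3 markers. Low-UMI clusters, a cluster with a median doublet score over 0.2 and a mixed one stayed unnamed, together 1554 control and 671 LTS cells. Cluster 21 met the oligodendrocyte rule but is given by number.

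Counts were summed per class and library, scaled to CPM and compared as ratios with exact conditional intervals (scipy 1.17.1). Shares carry Clopper-Pearson and CPM values Poisson intervals. No test between groups was possible with 1 library each. Named chains reached 50 CPM in a class of 50 cells. From the 46-gene list the 3 largest and 3 smallest ratios plus Serpinh1, P4ha1, Plod2, Lox and Ddr2 were named. Functions were tested on simulated counts. RefSeq's promoter table matched 35 of 44 chains.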

Additional observations from a re-analysis of the deposited data

How the results depend on the processing

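No paired analysis was possible because each group has 1 library. For the main comparisons, 144 recomputed values stayed within the limit set for them, their error or 1.5 times, and the 38 that moved are listed here. The shares listed lay outside the counting interval of the main share, though within 1.5 times of it. The cause was not tested, except that a lower minimum adds genes of few counts. Tumour collagen shares (control and LTS) became 0.1899% and 0.1909% at 2000 UMIs per barcode, 0.1985% and 0.1982% at 10% mitochondrial UMIs, and 0.226% and 0.2281% with equal cell weights. The control share was 0.2048% with free RNA taken off. Endothelial shares became 0.3167% and 0.3622% with equal weights and 0.4311% and 0.4878% with free RNA taken off. The control one was 0.3255% at resolution 0.5, and the LTS one 0.416% without the top 5% of doublet scores and 0.3858% without cells holding mural UMIs. Endothelial chains 2-fold higher in LTS numbered 0 with equal weights, 5 with free RNA taken off, 1 without top doublet scores and 7 without a CPM minimum, where 1 was lower. In microglia-like cells the higher count was 2 with equal weights, 3 without a minimum and 0 in the larger cluster alone, and the lower count 0, 7 and 4 in the same order and 0 with free RNA taken off. Monocyte-like cells had 0 lower chains at 2000 UMIs and with free RNA taken off, 1 at 10% mitochondrial UMIs and at resolution 2, and 5 lower and 2 higher without a minimum. Without a minimum the tumour pool had 2 chains and 1 biosynthesis gene 2-fold higher. Chains with a 2-fold span over tumour clusters numbered 8 and 8 at resolution 0.5, and 9 passed 3-fold in the LTS library. At 3-fold 2 endothelial chains were above carry-over. Leaving out cells with mural UMIs or the 1 cell with most UMIs of a chain, and taking the larger microglia cluster alone, were chosen after seeing the data. At 10% mitochondrial UMIs the 49 LTS endothelial-like cells were too few for a value, and with free RNA taken off the control Col1a1 level of these cells was 0, so no ratio was formed. With equal weights the endothelial Col3a1 ratio was 0.929 in place of 1.30, and with free RNA taken off it was 6.72. At 2000 UMIs the 49 control T cell-like cells were too few for a value. With free RNA taken off, the endothelial Col4a2 ratio (0.945) and the tumour Col3a1 ratio (0.9896) also crossed 1, as did tumour Col6a1 (1.01) with equal weights. Over the settings the Col18a1 ratio crossed 1 as well. It ran from 0.9785 to 1.001 in tumour-like and from 0.9492 to 1.216 in endothelial-like cells. Col5a3, with 11 and 15 UMIs in endothelial-like cells, and Col25a1, with 14 and 24 in microglia-like cells, rest on few counts.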

Other observations

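Among the chains of low count, Col17a1, a transmembrane collagen of epithelial attachment, had 39 and 48 of its 48 and 61 UMIs in the tumour pool, at 0.3524 and 0.4498 CPM. Its level was higher in cluster 18, an unnamed cluster of 97 cells led by Rnase6 and class II histocompatibility genes. There it was at 24.8 CPM in 58 control cells and 33.8 CPM in 39 LTS cells, from 5 and 9 UMIs, of which 4 LTS UMIs lay in 1 cell. Tumour RNA would give 0.0898 and 0.0436 CPM there. The small mixed cluster 21 held Col15a1 at 111 CPM in its 12 control cells (12 UMIs) and Col5a2 at 121 CPM in its 15 LTS cells (18 UMIs), against 3.09 and 2.75 CPM of Col5a2 in the tumour pool. Itga11, an integrin chain for fibrillar collagen, had 1 and 7 UMIs in the tumour pool, and Itga10, a relative that binds collagen in cartilage, was at 13.4 and 11.5 CPM. These genes were chosen after their values were seen.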
